A study of Mus musculus with 2 samples.

Results

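Horizontal basal cells are the quiet, flattened cells that lie on the basal lamina of the olfactory epithelium, the sheet in the nose that houses the odour-sensing neurons. Here they were taken as the cell barcodes with at least 5000 unique molecular identifiers (UMIs), at least 500 detected genes and at most 10% mitochondrial UMIs that also met 4 conditions on named genes. Krt5 and Krt14 together made up at least 0.1% of the cell's UMIs, at least 1 UMI came from Trp63, the secretory genes Bpifa1, Reg3g and Scgb3a1 together stayed under 0.5%, and Omp, the marker of mature olfactory neurons, stayed under 0.1%. The rule does not separate basal cells of olfactory epithelium from those of respiratory epithelium, and the origin of each member was not tested. This gave 139 cells among the 2954 barcodes that passed the depth, gene and mitochondrial limits. The transgenic library held 91 of them among 1816 kept barcodes (5.01%, exact Clopper-Pearson 95% interval 4.05 to 6.12%), and the wild-type library held 48 among 1138 (4.22%, 3.13 to 5.55%).

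The study profiled dissociated olfactory epithelium by droplet single-cell RNA sequencing with a 3' end kit, in 1 library per genotype. The transgenic library came from a female aged 9 weeks, whose strain is given as Tg(Or8a1-OR1A1,-MAPT/mCherry)D736Feins/J and whose alleles are given as Tg(Or8a1-OR1A1,-MAPT/mCherry)D736Feins/+. The transgene name gives an Or8a1 promoter, the human odorant receptor OR1A1, and MAPT and mCherry as the reporter. The wild-type library came from a female aged 8 weeks with genotype WT, labelled as a cross of 10G4-V2.2-#7/Jax with Bl6/129SF1/J. Genotype, strain, age and library therefore cannot be told apart in any difference between the 2 libraries, and no such difference carries a test. Intervals below cover counting error only.

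Horizontal basal cells anchor themselves to the basal lamina through hemidesmosomes, express the keratins Krt5 and Krt14 and the transcription factor Trp63, and rarely divide in undamaged tissue. They act as reserve stem cells: after injury they lose Trp63, divide and can rebuild both the neurons and the non-neuronal cells. Globose basal cells, which lie just above them, are the dividing progenitors that supply new neurons from day to day, and sustentacular cells are the supporting cells that span the epithelium.

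The rule genes were read as a description only, because they chose the cells. Levels are given as counts per 1000000 (CPM), the UMIs of a gene scaled to all UMIs of a group of cells, transgenic first and wild type second. Krt5 stood at 1385 CPM (95% Poisson interval 1333 to 1439) and 1415 CPM (1349 to 1484). Across single cells Krt5 ran from 245 to 3084 CPM with a median of 1410 in the transgenic library, and from 398 to 2859 with a median of 1343 in the wild-type library. Krt14 ran from 82.4 to 4998 CPM (median 2012) and from 68.9 to 3065 (median 1552), so both libraries held a few cells that carried Krt5 with little Krt14. Trp63 gave a median of 11 UMIs per cell in each library, with single cells between 122 and 1616 CPM and between 131 and 1518 CPM.

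Near the limits, the lowest combined share of Krt5 and Krt14 inside the rule was 0.101% and 0.113%, and the nearest cells outside stood at 0.0961% and 0.0970%. The mitochondrial limit excluded more barcodes than the rule kept: 114 and 61 met every other condition. Members had a median mitochondrial share of 8.58% and 8.55%, close to the limit, against 5.32% and 5.05% in the other kept barcodes. Their median depth was 14237 and 18424 UMIs, against 14317 and 12755 in the other kept barcodes, and no member shared its barcode sequence with a member of the other library.

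**Figure D1:**
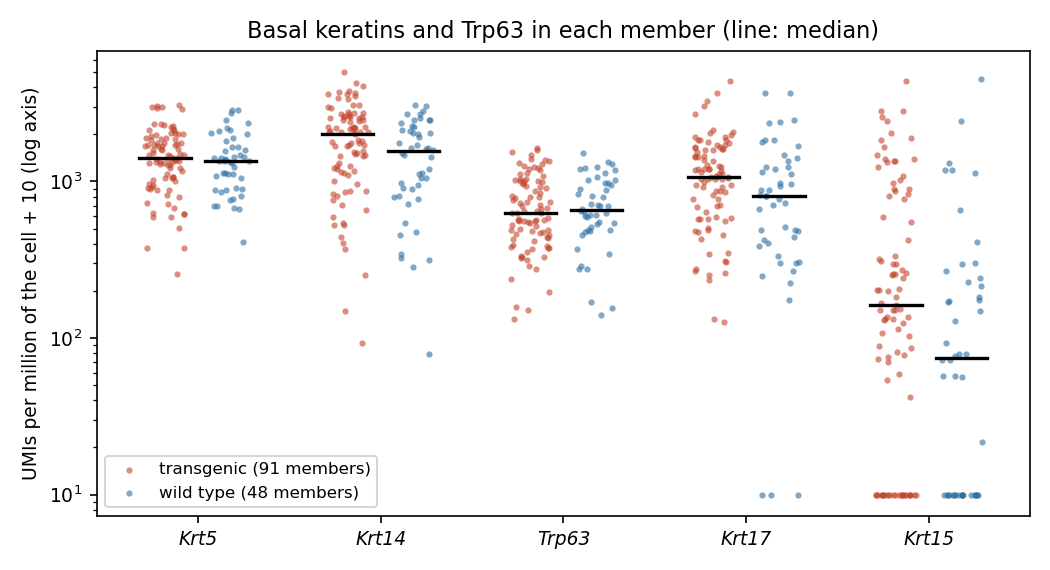
Level of Krt5, Krt14, Trp63, Krt17 and Krt15 in each of the 91 transgenic and 48 wild-type members, in CPM of the cell plus 10 on a log axis, with a line at each median. Krt5, Krt14 and Trp63 were used to choose the cells, while Krt17 was seen in all but 3 members and Krt15 was at 0 in some members of each library.

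Krt17, a basal keratin that the rule did not use, was read to see whether members were basal epithelial cells. It cannot tell kinds of basal cell apart. Between the Nrcam and Igfbp2 set and the Adh7 and Tgm2 set described below it was not called (log2 ratio 0.36 and 1.35). Krt17 stood at 1185 CPM (1137 to 1235) and 917 CPM (864 to 973) in members, against 15.7 and 12.6 CPM in the other kept barcodes, 75.5-fold and 72.6-fold higher. All 91 transgenic members and 45 of 48 wild-type members had a Krt17 UMI. After each cell was thinned to 5000 UMIs these shares were 98.9% and 85.4%, while none of the 52 and 29 fibroblasts, which should lack it, had a Krt17 UMI. Cell-free RNA, read from barcodes with under 100 UMIs, held 63.9 and 42.0 CPM of Krt17.

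Markers of several other cell types were near 0 in members, while the sums of sustentacular and gland markers were not. Of 8 squamous markers 3 were at 0 in the transgenic members and 6 in the wild-type members, Krt13 in both, and their sum was 4.16 and 3.35 CPM. The sum over 6 myoepithelial markers was 23.9 and 40.2 CPM with Cnn1 and Oxtr at 0, and that over 8 globose basal and precursor markers was 81.2 and 112 CPM with Neurog1 at 0. Sustentacular markers summed to 348 and 1477 CPM, and reached 0.1% of UMIs in 2 transgenic and 3 wild-type members. Bowman's gland markers summed to 559 and 995 CPM with Sox10 at 0. Over the other kept barcodes, the sustentacular list had a median log2 ratio of -3.28 and 0.96. Of 4 measured gland markers, Aqp5 was higher by 1.68 and 1.95, while Obp2a and Gpx6 were past 2-fold lower in both libraries. The gland list had a median of -2.57 and -0.52. Of 3 measured ciliated markers, Ccdc153 was higher by 4.03 and 5.4, while Dynlrb2 and Rsph1 were past 2-fold lower in both libraries. The ciliated list had a median of -2.83 and -3.43. No caller for doublets was run, so droplets holding 2 cells were not removed.

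Against the other kept barcodes of the same library, the adhesion genes of a basal epithelial cell were higher in members. A gene was measured when it reached 50 CPM and 20 UMIs in at least 1 of the groups compared, and it was called when it was past 2-fold in the same direction in both libraries. The call rate was 13.4% higher and 16.8% lower over 4053 measured genes. Since the members were picked by expression, these counts are descriptions and not tests. In each comparison a gene could also pass the filter through 1 group alone, which favours genes high in that group. In the other kept barcodes alone, 3 of 11 hemidesmosome and laminin, 3 of 23 Wnt and 2 of 14 Hippo genes passed it. Counts of higher genes among measured ones are therefore partly fixed by the filter. The median log2 ratio over all measured genes was -0.25 and -0.04.

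Of 11 genes of hemidesmosomes and their laminin, 10 were measured and 9 were higher, with a median log2 ratio of 2.52 and 2.53. Col17a1, the transmembrane collagen of the hemidesmosome, stood at 216 and 257 CPM in members against 4.06 and 8.12 CPM elsewhere (log2 ratio 5.72 and 4.98). Itgb4, the integrin chain that binds laminin, stood at 219 and 292 CPM against 10.2 and 14.5. Lamb3, a chain of that laminin, was 217 and 305 CPM against 5.10 and 10.7, and Lama3, another chain, was 3.60 and 3.34 higher on the log2 scale. Dst, the plakin that ties hemidesmosomes to keratin, was 619 and 743 CPM against 132 and 173. The partner chain Itga6 had ratios of 0.94 and 1.35 and was not called, because the transgenic value fell short of 2-fold.

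Cell-to-cell junctions followed, with 5 of 9 measured genes of 14 higher and a median of 1.84 and 2.40. Dsp, the desmosomal plakin, stood at 502 and 636 CPM against 55.4 and 49.9, and Perp, a Trp63 target in desmosomes, was 4.14 and 3.86 higher on the log2 scale. Dsc3, a desmosomal cadherin, and Pkp1, its plakophilin, stood at 140 and 180 CPM and at 55.2 and 64.6 CPM in members.

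Among other keratins, Krt15 was spread unevenly over members: 69 of 91 and 30 of 48 had a UMI, at 504 and 222 CPM against 11.7 and 7.35 elsewhere. Krt19, a keratin of simple and basal epithelia, had log2 ratios of 5.10 and 4.43. Krt8 and Krt18, the keratins of simple epithelia, were not called, with log2 ratios of 0.03 and 0.22 for Krt8 and 0.35 and 0.81 for Krt18.

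Of 14 surface and regulator genes known from horizontal basal cells, 11 were measured, 8 were higher and 1 was lower. Icam1, an adhesion molecule used to sort these cells, stood at 364 and 221 CPM against 20.3 and 23.8, and Egfr, the epidermal growth factor receptor, was 3.83 and 3.8 higher on the log2 scale. The progenitor transcription factors Sox2 and Pax6 stood at 415 and 406 CPM and at 227 and 239 CPM, with log2 ratios of 2.34 and 3.20 and of 2.21 and 3.07. Otx2 and Meis1, 2 homeobox factors, stood at 223 and 260 CPM and at 123 and 122 CPM. Ezh2, the histone methyltransferase of the Polycomb complex, was the lower one at 18.7 and 33.5 CPM against 90.2 and 69.1.

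The 15 genes with the highest ratio in the library where it was smaller, apart from the rule's own genes, were led by Abca4, a lipid transporter best known from photoreceptors. Abca4 stood at 102 and 185 CPM in members against 1.27 and 1.11 CPM elsewhere (log2 ratio 6.29 and 7.33). Vit, a matrix protein, had ratios of 6.31 and 6.23, Dlk2, a relative of the Notch ligands, 6.02 and 6.06, and Slc47a1, an exporter of organic cations, 6.70 and 5.99. Ccl20, a chemokine, had ratios of 5.90 and 6.23 but a UMI in only 24 of 91 and 19 of 48 members. Nrcam, a neuronal adhesion molecule, and Igfbp2, which binds insulin-like growth factors, had ratios of 5.35 and 6.98 and of 5.42 and 5.74. Fgfbp1, a carrier of fibroblast growth factors, had ratios of 6.99 and 5.20, and Mir205hg, the host transcript of a microRNA of basal epithelia, stood at 226 and 229 CPM.

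Signalling genes were higher on several pathways. In the Notch list 4 of 5 measured genes of 16 were higher. The receptor Notch1 stood at 114 and 151 CPM against 37.4 and 54.7, the ligand Jag2 had log2 ratios of 2.18 and 2.38, and the targets Hes1 and Hey1 had ratios of 2.59 and 2.56 and of 1.05 and 2.26. In the Wnt list 5 of 7 measured genes of 23 were higher. They included the ligand Wnt4 at 628 and 512 CPM against 32.1 and 28.8, the secreted inhibitor Sfrp1 at 672 and 662 CPM against 52.2 and 43.3, and the repressor Tcf7l1.

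Receptors made up the called genes of the growth factor list, 5 of 11 measured of 26. Fgfr2 stood at 83.8 and 122 CPM, Met, the receptor of hepatocyte growth factor, at 87.5 and 132 CPM, and Il6st, the shared receptor chain of the interleukin-6 family, at 309 and 465 CPM. In the Hippo list 5 of 8 measured genes of 14 were higher: the coactivator Yap1 (log2 ratio 2.35 and 2.71), its regulators Ajuba and Amotl2, and the secreted targets Ccn1 and Ccn2.

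**Figure D2:**
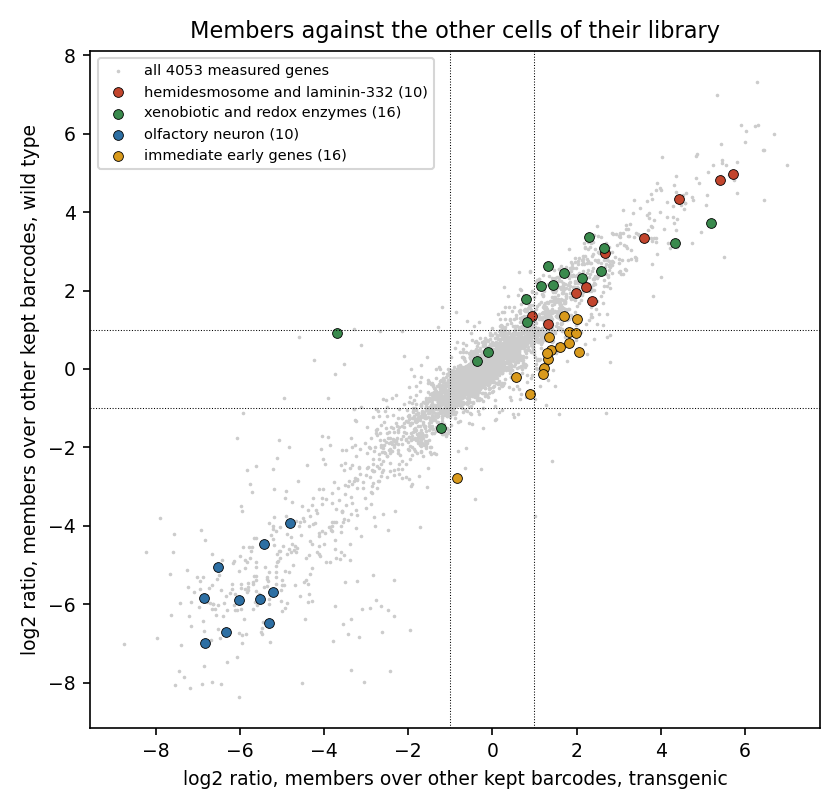
Log2 ratio of members over the other kept barcodes for all 4053 measured genes (grey), transgenic on the horizontal axis and wild type on the vertical axis, with 4 gene lists in colour and dotted lines at 2-fold. The 10 hemidesmosome and laminin genes lie at the upper right, the 10 neuron markers at the lower left, and the 16 immediate early genes lie below the diagonal, with higher ratios in the transgenic library.

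Of 13 genes for water channels and ion transport, 10 were measured, 5 were higher (Aqp3, Aqp4, Aqp5, Scnn1a and Atp1b3) and 2 were lower (Aqp1 and Slc12a2). Aqp3, a water and glycerol channel of basolateral membranes, was seen in every member at 1607 and 1464 CPM, against 142 and 85.5 CPM elsewhere. Aqp4 stood at 529 and 683 CPM and Aqp5 at 353 and 370 CPM, while the related channel Aqp1 was lower, at 22.9 and 0.838 CPM against 144 and 176. Slc12a2, the sodium, potassium and chloride importer, was also lower by a log2 ratio of -1.44 and -1.64. Of 20 enzymes of xenobiotic and redox metabolism, 16 were measured, 10 were higher and 1, Nqo1, was lower, with a median of 1.38 and 2.23. Cbr2, a carbonyl reductase, stood at 3756 and 3777 CPM against 770 and 364, and Gstm1, a glutathione transferase, at 3540 and 2599 CPM. Aldh3a1 and Adh7, dehydrogenases of aldehydes and of retinol and other alcohols, had ratios of 5.19 and 3.71 and of 4.34 and 3.22.

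Against cycling globose basal cells, 56 and 8 of them, members carried little of the dividing programme. The call rate was 18.3% higher and 20.7% lower over 3728 measured genes, with all-gene medians of -0.25 and -0.18. Of 17 measured cell cycle genes of 20, 16 were lower and 1, Ccnd2, was higher. Those globose cells were picked by cycling genes, so this count partly restates their choice. Mki67, the proliferation marker, stood at 2.08 and 5.87 CPM in members against 544 and 602 CPM, and its UMIs lay in 4 of 91 and 3 of 48 members, below the 15.4 and 16.5 CPM found in cell-free RNA. Ccnd1, the cyclin of early G1, was 80.7 and 117 CPM against 777 and 518, whereas Ccnd2, a related cyclin, was 498 and 573 CPM in members against 24.8 and 0 CPM. Pcna, the replication clamp, stayed at 76.5 and 80.5 CPM against 248 and 267.

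The neuronal lineage genes Neurod1 (1.04 and 0.838 CPM against 967 and 2051) and Elavl4 (3.12 and 2.52 against 860 and 1586) were nearly absent from members. In the other direction, all 10 measured hemidesmosome and laminin genes were higher, with a median of 3.81 and 3.8. F3, tissue factor, which starts coagulation, stood at 1346 and 1276 CPM in members against 21.9 and 7.62 CPM. The factors Sox2 and Pax6 were not called between the 2 basal cell types. Sox2 had log2 ratios of 0.77 and 0.29, and Pax6 had ratios of 0.72 and 1.02. Notch1 was not called either (0.12 and -0.47).

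A further comparison used the 110 and 36 cells rich in Cyp2g1, Cyp1a2 and Ermn, which are sustentacular markers. These cells also held gland-type transcripts such as Dcpp1 and Ltf, so they are named here by their genes. The call rate was 9.4% higher and 10.8% lower over 3796 measured genes, and 8 of 10 hemidesmosome and laminin genes were higher. Krt8 and Krt18 were lower in members, at 283 and 286 CPM against 1405 and 2050 for Krt8 and at 633 and 664 CPM against 2462 and 2971 for Krt18, while Krt19 and Krt7 were higher. Defb1, an epithelial defensin, stood at 140 and 135 CPM in members against 0.268 and 0 CPM. Wfdc18, a secreted protein with a whey acidic domain, was lower by a log2 ratio of -8.92 and -8.25, and Rgs5, a regulator of G protein signalling, by -8.53 and -8.15.

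Respiratory secretory cells, 5 and 7, formed a further comparison. They are not the barcodes that the secretory limit removed, which were also 5 and 7 and had met the keratin condition. Of the respiratory secretory cells, 3 of 5 and 5 of 7 had no UMI of Krt5, Krt14, Trp63 or Krt17. They were picked by secretory genes, so the contrast in those genes partly restates their choice, and it rests on few cells. Over 3027 measured genes the call rate was 9.18% higher and 2.21% lower in members. The all-gene medians were themselves above 0, at 0.23 and 0.52. Nrcam stood at 449 and 549 CPM in members and at 0 in both groups of secretory cells. Srd5a2, a steroid reductase, stood at 567 and 469 CPM against 10.1 and 0, and Ogn, a small matrix proteoglycan, at 254 and 216 CPM against 0 in both. Adh7, Aldh3a1 and Tgm2 were not called here: the secretory cells held 790 and 610 CPM of Adh7, 385 and 428 of Aldh3a1 and 294 and 164 of Tgm2.

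Members did not share one profile. Nrcam and Igfbp2 on the one hand and Adh7 and Tgm2, a transglutaminase, on the other marked different cells, and the split below was chosen after these values were seen. A member was placed by the log2 ratio of Nrcam plus Igfbp2 UMIs to Adh7 plus Tgm2 UMIs, 1 UMI added to each sum. The Nrcam and Igfbp2 set held 65 of 91 transgenic members (71.4%, 61.0 to 80.4%) and 24 of 48 wild-type members (50%, 35.2 to 64.8%). The score of this set ran from 0.72 to 6.73 and from 1.00 to 6.20, and that of the Adh7 and Tgm2 set from -6.27 to -0.43 and from -6.38 to -1.29. Scores under 1 in size were found in 3 transgenic and no wild-type members, and 1 further member of each library lay at exactly 1 in size. Had the mitochondrial limit been 20%, a setting tried after seeing the data, this set would have held 83.1% of 201 and 65.1% of 106 members.

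**Figure D3:**
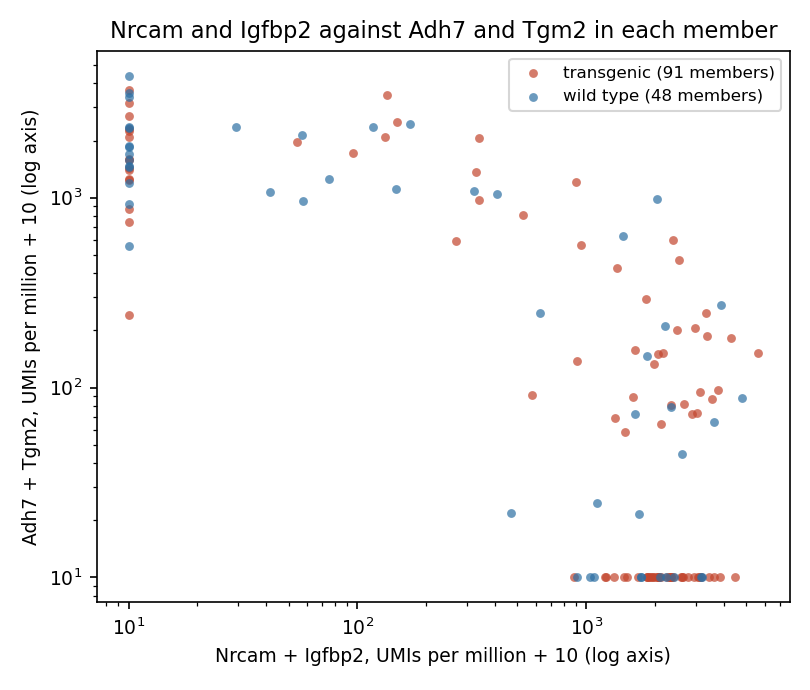
Summed Nrcam and Igfbp2 against summed Adh7 and Tgm2 in each member, both in CPM of the cell plus 10 on log axes, for 91 transgenic and 48 wild-type members. Most members lie along one axis or the other, and 3 transgenic members have a score under 1 log2 unit in size.

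Nrcam, Igfbp2, Adh7 and Tgm2 placed the members, so their levels per set restate the split and are given as a description only. Nrcam stood at 734 and 853 CPM in its set and at 18.3 and 9.31 CPM in the other. Every member of its set had a Nrcam UMI, against 3 of 26 and 3 of 24 in the Adh7 and Tgm2 set, and the median member held 703 and 860 CPM. Adh7 stood at 1153 and 1117 CPM in its own set and at 29.4 and 62.9 CPM in the other. Neither set was shallower in both libraries: median depth was 14043 and 18565.5 UMIs in the Nrcam and Igfbp2 set, and 18733.5 and 18424 in the Adh7 and Tgm2 set. Median mitochondrial shares were 8.93% and 9.08%, and 7.63% and 8.31%.

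Over 3359 measured genes, 4.58% were higher and 3.57% lower in the Nrcam and Igfbp2 set by more than 2-fold in both libraries. None of the 10 measured hemidesmosome and laminin genes and none of the 11 measured junction genes were called, which is near the share over all genes. Among the rule's genes, which every member had to carry, Trp63 differed little (744 and 841 CPM against 664 and 605), Krt5 stood at 1606 and 1640 CPM against 1051 and 1017, while Dst, Sfrp1, Mir205hg and Trim29, which the rule did not use, had log2 ratios between -0.16 and 0.22.

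Single genes with the largest ratios towards the Nrcam and Igfbp2 set were of several kinds. Car12, a membrane carbonic anhydrase, stood at 584 and 530 CPM against 41.9 and 14. Basp1, a membrane protein of growing nerve endings, stood at 1295 and 1054 CPM against 114 and 4.65, and Cpe, a peptide-processing enzyme, at 239 and 260 CPM against 13.1 and 6.98. Thbs1, a matrix glycoprotein, stood at 238 and 278 CPM, and Crabp2, which carries retinoic acid, at 194 and 157 CPM against 18.3 and 4.65. Scgb1c1, a secretoglobin of the olfactory mucosa, stood at 4434 and 3954 CPM against 806 and 289. The other kept barcodes held 7169 and 4975 CPM of Scgb1c1.

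Other genes were higher in the Adh7 and Tgm2 set. Col25a1, a transmembrane collagen, stood at 140 and 179 CPM against 0.864 and 0, with a UMI in 20 of 26 and 20 of 24 members of this set and in 1 of 65 and 0 of 24 of the other. Lgr6, an R-spondin receptor that marks stem cells in other epithelia, stood at 123 and 154 CPM against 0 and 2.62, with a UMI in 16 of 26 and 21 of 24 members. Foxa1 and Klf5, transcription factors of airway and gut epithelia, stood at 251 and 291 CPM against 22.5 and 43.3 and at 552 and 447 CPM against 105 and 121. S100a6, a calcium-binding protein, stood at 2079 and 2634 CPM against 113 and 219, and Dcn, decorin, a matrix proteoglycan, at 1138 and 1952 CPM against 175 and 359. Krt15 was also higher here, 808 and 489 CPM against 303 and 72.1.

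Of 11 measured genes of the growth factor list, 4 were higher in the Adh7 and Tgm2 set (Fgfr2, Fgfr3, Id3 and Tgfbr2) and none in the other. Fgfr2 stood at 153 and 277 CPM against 38.0 and 34.1, and Fgfr3 at 107 and 133 CPM against 26.8 and 21.0. Fgfr1 was not called and leaned the other way, with log2 ratios of 0.72 and 1.74 towards the Nrcam and Igfbp2 set. The detoxifying enzymes divided between the sets: 4 of 16 measured were higher in the Nrcam and Igfbp2 set (Gstm1, Gstm2, Txnrd1 and Nqo1) and 6 were lower (Adh7, Aldh3a1, Cyp2f2, Fmo1, Gsta3 and Gsto1). Adh7 was used to place the members, so its part in this count restates the split. Gstm1 stood at 4735 and 3320 CPM against 1731 and 1319, whereas Cyp2f2, a cytochrome P450 of airway secretory cells, stood at 311 and 866 CPM against 2653 and 3921.

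Markers of other cell types moved with the split. The sustentacular sum was 493 and 2271 CPM in the Nrcam and Igfbp2 set against 130 and 67.5 CPM, with 1 and 3 members at or above 0.1% in the first set and 1 and 0 in the other. Most of the 2271 CPM came from those 3 wild-type members. Bpifa1, one of the secretory genes that the rule limits, stood at 50.1 and 68.2 CPM against 173 and 719, and Reg3g at 46.7 and 15.7 CPM against 253 and 386. Of the 9 other respiratory secretory markers, 7 and 5 were at 0 in the Adh7 and Tgm2 set, where their sum was 92.9 and 76.8 CPM. The part of these transcripts in the split was not tested. Cyp2f2, Foxa1 and Klf5, named above as genes of airway or gut epithelia, were higher in the Adh7 and Tgm2 set. Scgb1c1, of the olfactory mucosa, was lower there. The olfactory name is therefore uncertain for that set, its origin was not tested, and values over all members mix both sets.

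Immediate early genes, which are transcribed within minutes of a stimulus and also during tissue dissociation, differed between the libraries in members. The 16 genes together took a median of 1.75% of a transgenic member's UMIs (0.0244 to 5.27%) and 0.350% of a wild-type member's (0.0419 to 2.47%). The other kept barcodes had medians of 0.235% and 0.246%. Of the 16 genes, 8 were past 2-fold higher in transgenic members and none lower (median log2 ratio 1.01). Over 3601 measured genes the call rate was 1.14% higher and 1.75% lower, with a median of -0.09. In the other kept barcodes none of the 16 were past 2-fold (median 0.01), where the call rate was 2.02% higher and 4.47% lower over 4004 genes. With 1 library per genotype neither ratio has a test.

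**Figure D4:**
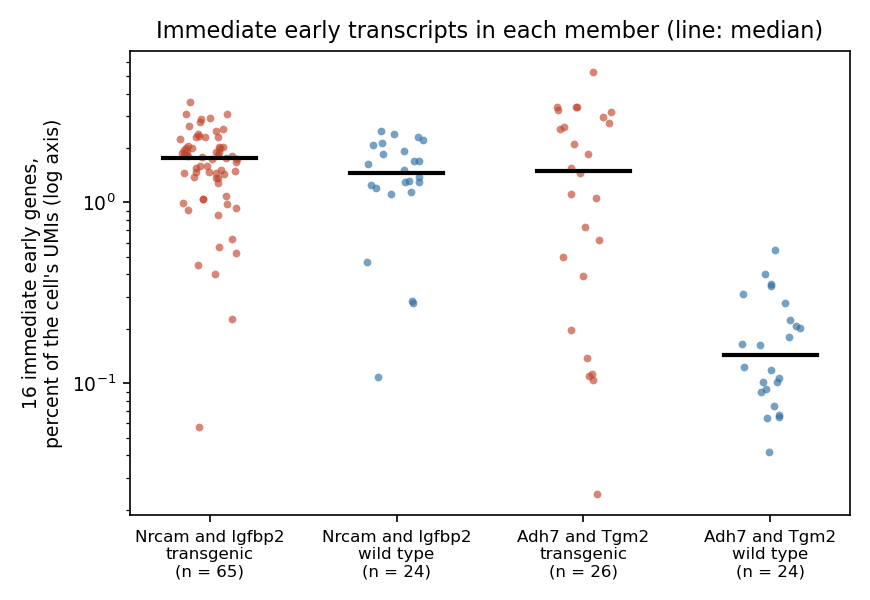
Share of each member's UMIs that came from 16 immediate early genes, on a log axis, by library and by set, with a line at each median. The medians were 1.76% and 1.45% in the Nrcam and Igfbp2 set and 1.5% and 0.143% in the Adh7 and Tgm2 set, transgenic first.

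The values were furthest apart in the Adh7 and Tgm2 set, although the difference between the sets was not tested. In the Nrcam and Igfbp2 set the quartiles overlapped, at 1.36 to 2.04% in transgenic and 1.19 to 1.96% in wild-type members, with medians of 1.76% and 1.45%. In the Adh7 and Tgm2 set the quartiles were 0.419 to 2.92% around 1.5% and 0.0921 to 0.238% around 0.143%. More than 0.5% of UMIs came from these genes in 61 of 65 and 20 of 24 members of the first set, and in 19 of 26 and 1 of 24 members of the second. The transgenic cells of the second set spread most widely, from 0.0244 to 5.27%, and so reached below the lowest wild-type cell of that set at 0.0419%.

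Gene by gene, 15 of 15 measured immediate early genes were past 2-fold higher in the transgenic cells of the Adh7 and Tgm2 set (median 3.65). These ratios use summed UMIs, so deep cells weigh most. The deepest transgenic cells of this set, at 115601 and 85521 UMIs, had immediate early shares of 3.35% and 3.17%. They lay near the cut of the split, with scores of -0.61 and -0.43. The call rate there was 3.67% higher and 3.59% lower over 3679 measured genes. In the Nrcam and Igfbp2 set 1 of 16, Klf2, was past 2-fold (median 0.35), against 1.01% higher and 3.48% lower over 3651 genes. Fos, a subunit of the AP-1 factor, stood at 4584 and 114 CPM in the Adh7 and Tgm2 set, transgenic cells first (log2 ratio 5.30, 4.92 to 5.77). It was seen in 20 of 26 and 8 of 24 cells. In the Nrcam and Igfbp2 set Fos stood at 2843 and 2469 CPM. Egr1, a zinc finger factor, stood at 1750 and 137 CPM in the Adh7 and Tgm2 set (3.65, 3.30 to 4.07) and at 1358 and 1564 CPM in the other. Atf3, a stress factor, was seen in 13 of 26 and 0 of 24 cells of the Adh7 and Tgm2 set, and Jun stood there at 5171 and 517 CPM.

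**Figure D5:**
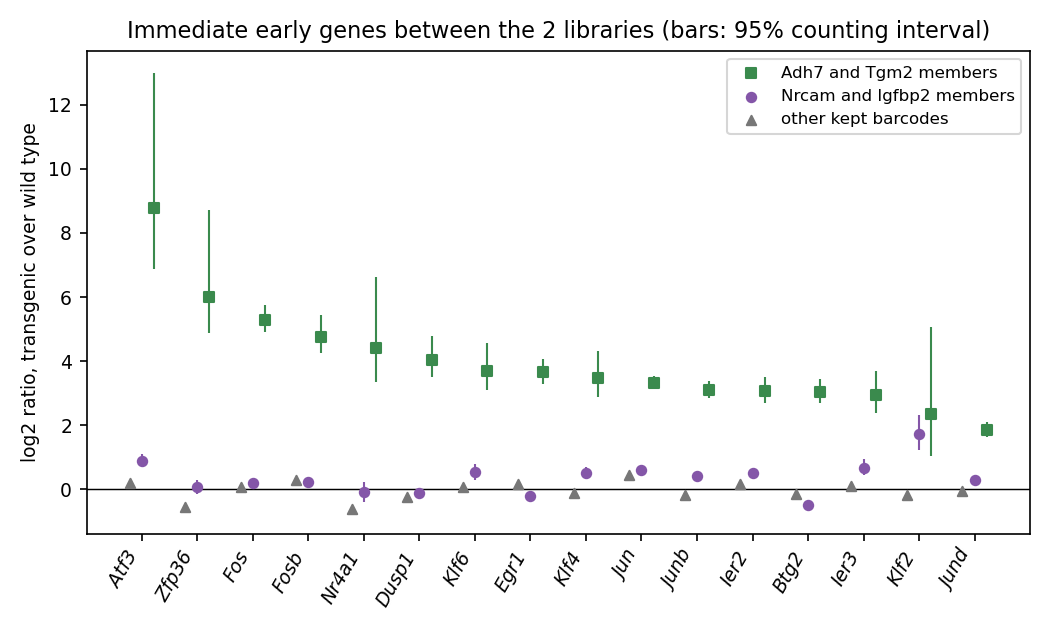
Log2 ratio of the transgenic over the wild-type library for each of 16 immediate early genes, with 1 UMI added to each sum, in the Adh7 and Tgm2 members (squares), the Nrcam and Igfbp2 members (circles) and the other kept barcodes (triangles). Bars show 95% counting intervals, cut off at 13. The squares lie between 1.86 for Jund and the value of Atf3, which has 0 UMIs in the wild type, while the triangles lie near 0.

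Heat shock genes were past 2-fold higher in transgenic cells in 4 of 10 measured (Hspb1, Dnajb1, Hsp90aa1 and Hspa1a) in the Adh7 and Tgm2 set, 0 of 11 in the other set and 2 of 8 in the other kept barcodes. Their median log2 ratios were 0.77, 0.44 and 0.59, so the shift was not limited to members. Hspa1a stood at 289 and 41.9 CPM in the Adh7 and Tgm2 set. Socs3, a feedback inhibitor of cytokine signalling, stood there at 839 and 14 CPM, Hbegf, a ligand of the epidermal growth factor receptor, at 196 and 6.98 CPM, and Hes1 at 742 and 188 CPM. Fibroblasts, 52 and 29 cells, had immediate early medians of 1.69% and 0.717%, the respiratory secretory cells 1.22% and 0.0460%, and the cells rich in Cyp2g1 0.865% and 0.392%. The part of dissociation in these values was not tested, and it cannot be told apart from genotype, strain, age or library.

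Over all members, none of 10 measured hemidesmosome and laminin genes, 12 junction genes, 10 surface and regulator genes, 6 Notch genes, 10 Wnt genes or 8 Hippo genes were past 2-fold between the 2 libraries. With 1.14% of all measured genes past 2-fold higher and 1.75% lower, these counts are near the share over all genes. In the growth factor list 2 of 13 measured genes were higher in transgenic members, Id3, a target of bone morphogenetic proteins, and Hbegf, and 1 was lower, Tgfb2, a transforming growth factor. Within the Adh7 and Tgm2 set 3 of 8 measured Hippo genes (Ccn1, Ccn2 and Amotl2), Icam1 and Hes1 were past 2-fold higher. Ccn2 was past 2-fold lower in the Nrcam and Igfbp2 set. Krt5, Trp63 and Krt17 differed by less than 1.5-fold in summed level over all members. Within the Adh7 and Tgm2 set, however, Krt17 was past 2-fold higher in transgenic cells (log2 ratio 1.14), against 0.14 in the Nrcam and Igfbp2 set. Krt15, another basal keratin, was higher in transgenic members with a log2 ratio of 1.18 (0.98 to 1.38). It was past 2-fold higher in the Nrcam and Igfbp2 set but not in the Adh7 and Tgm2 set.

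Among the 10 genes most clearly higher in transgenic members, Gm20186, a predicted gene, stood at 198 and 3.35 CPM (log2 ratio 5.57, 4.52 to 7.77). It was seen in 69 of 91 and 4 of 48 members. The other kept barcodes had nearly the same ratio for Gm20186, 5.21. Cwc22, a splicing factor, had ratios of 1.81 in members and 1.97 elsewhere. Cdkn1a, the cell cycle inhibitor p21, was 121 and 26.0 CPM in members (2.18), Hbegf 106 and 11.7 CPM (3.09) and Socs3 839 and 257 CPM (1.71), with ratios of -0.09, 0.04 and -0.21 in the other kept barcodes. Coch, cochlin, a secreted matrix protein, was 120 and 8.38 CPM, but 57.6% of its transgenic UMIs came from 1 cell, as did 94.2% of those of Mal, a membrane proteolipid.

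In the other direction Rps18-ps6, a processed copy of a ribosomal protein gene, had 0 UMIs in 91 transgenic members and 259 UMIs over 47 of 48 wild-type members. That is at least 139-fold lower in the transgenic library, with 3 UMIs over the group as the floor. It differed the same way in the other kept barcodes (log2 ratio -10.80), as did Rps18-ps5 (-6.08 in members and -6.35 elsewhere). Reads of such copies can be shared with the parent gene, so these levels are uncertain. Adamts15, a secreted protease, stood at 9.37 and 101 CPM (-3.37, and -2.78 elsewhere), all of it in the Nrcam and Igfbp2 set, and Obp2a, an odorant-binding protein, at 12.0 and 201 CPM (-4.02, and -2.57 elsewhere).

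For 6 of the 10 genes most clearly lower in transgenic members, 1 wild-type member held a large share of the UMIs. Cyp2g1, an olfactory cytochrome P450, stood at 50 and 688 CPM (-3.77, -4.10 to -3.48), with UMIs in 26 of 91 and 9 of 48 members, and 1 member of each library gave 71.9% and 63.2% of them. In the other kept barcodes Cyp2g1 went the other way, 1.64. Gpx6, a glutathione peroxidase, Cyp2a5, another cytochrome P450, and Lyz2, lysozyme, had 64.5%, 55.3% and 66.9% of their wild-type UMIs in 1 member. Chil4, a chitinase-like protein, had 0 and 67 UMIs, the latter in 6 members with 53.7% in 1, and Cyp1a2 had 45.1% of its wild-type UMIs in 1 member. H2-Aa and H2-Ab1, the chains of the class II antigen-presenting molecule, which were outside those 10 and were the lower genes of the antigen presentation list, had 91.6% and 88.3% in 1 member. Without the 2 transgenic and 3 wild-type members that had sustentacular markers at 0.1% or more, the ratio of Cyp2g1 was 1.06, that of H2-Aa 2.12 and that of H2-Ab1 0.80.

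Odorant receptors were seen in about the same share of members as of fibroblasts, and the transgene was below its level in cell-free RNA. No member had 3 or more UMIs of 1 receptor among 1105 receptor genes, 0 of 91 (exact upper limit 3.97%) and 0 of 48 (7.40%). At least 1 receptor UMI was seen in 51 members (56.0%) and 27 members (56.3%), a share like that of fibroblasts, 27 (51.9%) and 16 (55.2%). Receptor genes stood at 44.3 and 47.0 CPM in members, against 71.8 and 83.1 CPM in fibroblasts. The OR1A1 transgene, feature 1A1_tg, gave 3 UMIs in 3 of 91 transgenic members, 1.56 CPM against 97.8 CPM in the other kept barcodes and 45.7 CPM in cell-free RNA, and none in wild-type members. A second added feature, 10G4, gave 11 UMIs in 9 transgenic and 6 UMIs in 6 wild-type members, 5.73 and 5.03 CPM. The other kept barcodes held 5.70 and 9.12 CPM of 10G4, and cell-free RNA held 0 and 2.17 CPM.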

How the data were processed

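The 2 deposited matrices hold whole-number counts of UMIs per gene and barcode for 32534 features, unfiltered (2037787 and 1577106 barcodes; 70572741 and 55701219 UMIs). The submitters' processing notes name Cell Ranger 6.1.1 and the build GRCm39 (mm39), while the file headers name version 4; other counting settings are not given in the sources used here. Members were chosen by the stated rule, and all gene lists and the rule itself were chosen with earlier results of these data known. Counts were summed per library and group. CPM has an exact Poisson interval, and a log2 ratio, with 1 UMI added, a conditional exact binomial one. Called means past 2-fold. The ratio code was tested on simulated data. No p-value was computed, since each genotype has 1 library.

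Named genes were the 15 with the largest ratio over the other cells in the library where it was smaller, 10 per direction between libraries by the interval bound nearest 0, 5 per direction against each class, the rule's genes, the added features and up to 6 members of each of 20 lists. The comparison of the 2 sets, with 10 genes a side, was added after the values were seen, as were 4 of 19 alternative settings. Tools were Python 3.11.15, numpy 2.4.6, scipy 1.17.1, pandas 2.3.3 and matplotlib 3.10.9.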

Additional observations from a re-analysis of the deposited data

Results flagged for a closer look

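In 5 genes the ratio went past 2-fold in opposite directions in the 2 libraries, and the difference was not tested because each genotype has 1 library. Against the other kept barcodes, Muc2 had log2 ratios of -3.28 (transgenic) and 1.02 (wild type), with UMIs in only 5 and 7 members and 84% and 40.7% of them in 1 cell. Lgals3, a galectin, had ratios of 1.57 and -1.16. Ifi27l2a, an interferon-induced gene, had ratios of 2.69 and -1.12, and 1 transgenic member gave 48.9% of its UMIs there. Il33, an alarmin cytokine, had ratios of -1.30 and 1.08. Between the 2 sets of members, the chemokine Ccl20 had a ratio of the Nrcam and Igfbp2 set over the Adh7 and Tgm2 set of -2.23 (transgenic) and 1.06 (wild type), at 96.8 against 457 CPM and at 280 against 133 CPM.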

How the results depend on the processing

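No paired analysis was possible because each genotype has 1 library, and for the same reason no replicate could be left out. Of 522 single-gene values over 29 genes and every setting except the 5% mitochondrial limit, 507 kept their sign, 417 moved by less than their counting interval, 91 moved further and 14 reversed; the cause was not tested. Settings added after seeing the data are the 20% mitochondrial limit, each set alone, and the removal of members with sustentacular markers. With the Adh7 and Tgm2 set alone, 135 genes were higher and 132 lower in the transgenic library, and Coch was at -0.83, Cyp2g1 1.49, Gpx6 1.98, Cyp2a5 0.68 and H2-Aa 0.98; with the Nrcam and Igfbp2 set alone 127 were lower. At a keratin minimum of 0.05% transgenic Krt17 was 1044 CPM. At 0.2% Krt17 was 1283 and 1126 CPM, the wild-type share 2.90%, Cyp2g1 2.59, Cyp1a2 1.61, H2-Aa 1.87 and H2-Ab1 0.70. At a mitochondrial limit of 20% members made up 8.28% (201) and 6.96% (106) of kept barcodes, 83.1% and 65.1% of them in the Nrcam and Igfbp2 set, with Krt17 at 1253 and 1104 CPM and 22 genes higher. At 5% the shares were 0.130% and 0.185%, 1 member each, so no other value was computed. At the stricter UMI minimum 100% of wild-type members had Krt17. With the mean of per-cell CPM 105 genes were lower. Genes measured at 5 UMIs gave 615 higher and 911 lower between libraries, and 1887 higher and 3156 lower against the other cells. Wild-type Krt17 was 985 CPM at a secretory limit of 0.1% and 986 CPM without members with sustentacular markers, where Cyp2g1 was 1.06, H2-Aa 2.12 and H2-Ab1 0.80. Without the 5% of members with most UMIs, H2-Aa was 1.17 and H2-Ab1 0.93. Scaling by the median ratio moved every ratio by 0.09. Depth limits genes under 20 UMIs in a summed group.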
